A study of Mus musculus with 15 samples.

Results

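Oxidative phosphorylation couples the oxidation of nutrients to the making of ATP on the inner mitochondrial membrane. Complex I (NADH dehydrogenase) and complex II (succinate dehydrogenase) pass electrons to ubiquinone, complex III passes them on to cytochrome c, and complex IV (cytochrome c oxidase) passes them to oxygen. Protons pumped on the way drive complex V, the ATP synthase. Most subunits are encoded in the nucleus and a minority in the mitochondrial genome, and cells of the liver, a tissue rich in mitochondria, draw heavily on the pathway.

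The nuclear genes of this machinery were taken from the deposited gene tables by name. They are the protein-coding genes whose symbols begin with Nduf, Uqcr, Cox4 to Cox8 or Atp5, together with Sdha, Sdhb, Sdhc and Sdhd. The rule gave 94 genes of the 54532 in each table, among 22046 protein-coding genes, on 19 chromosomes. By complex they were 44 genes of complex I (7 core subunits, 29 accessory subunits and 8 assembly factors), 4 of complex II, 8 of complex III, 20 of complex IV and 18 of complex V. Ndufa4 and Ndufa4l2 were counted with complex IV, where the Ndufa4 protein resides. The symbol Atp5o stood on 2 rows, of which 1 had no reads in any library, so the 94 rows carry 93 symbols.

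RNA was sequenced from livers of 4 mice on the control diet (CS group) and 5 mice on a diet with 2% phytosterols (PS group), and from lungs of 3 CS and 3 PS mice. All were wild type male C57BL/6J mice, an inbred strain, labelled as 28 weeks old. The purchase age and feeding times in the study's methods sum to an older age. The 15 libraries came from 9 mice, 6 of which gave both tissues, and each library was poly-A selected bulk RNA from frozen tissue.

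Total counts ranged from 14410117 to 17625179 per liver library and from 17934930 to 19396057 per lung library. The tissue labels fitted the markers: Alb, the albumin gene, was at 21783 to 37436 FPKM in liver and at most 25.6 in lung, and Sftpc, a surfactant protein gene, was at 12500 to 26519 FPKM in lung and at most 0.697 in liver. FPKM are the deposited counts per gene length and per library scale, so they allow genes to be compared with each other. The liver and lung FPKM tables were scaled separately. In bulk tissue, fewer cells of a type and less RNA per cell cannot be told apart.

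Some libraries stood apart. Transcripts of the mitochondrial genome took 14.4% of counts in liver CS replicate 2, 13.3% in liver PS replicate 1 and 9.79% in liver PS replicate 3, against 3.33% to 6.50% in the other livers. In lung they took 2.94% to 3.51% in the CS group and 3.69%, 6.13% and 7.28% in PS replicates 3, 1 and 2. Lung PS replicate 1 had the highest summed level of 9 heart muscle markers, at 357 FPKM, against 29.1 to 178 in the other lungs, and lung CS replicate 3 had the highest sum of 7 skeletal muscle markers, at 275 FPKM against 2.70 to 6.34. The sum of 6 fat cell markers was 98.5, 125.6 and 17.2 FPKM in the CS lungs and 110, 5.75 and 4.26 FPKM in the PS lungs, with Adipoq and Cfd at 0 in PS replicates 2 and 3. All 6 had lung log2 fold changes below 0 (median -1.23), none of them called. Among 8 lung epithelium markers Sftpc was at 26324 and 26519 FPKM in PS replicates 1 and 2 against 12500 to 15605 FPKM in the other lungs (log2 fold change 0.82, edgeR adjusted p = 0.0764), none of the 8 was called, and Sftpb, another surfactant gene, was at 1146 to 1205 FPKM in every lung. Of 5 macrophage and blood markers Adgre1, a macrophage receptor, was called lower, at 6.29, 4.67 and 4.51 FPKM in CS lungs and 3.33, 2.62 and 2.87 FPKM in PS lungs (log2 fold change -0.81, edgeR adjusted p = 0.0448), while Cd68 and Ptprc were not called. The sum of 8 hepatocyte markers was 99.6 FPKM in lung CS replicate 1 and 3.66 to 17.9 FPKM in the other lungs. The part of these cells in the lung results was not tested.

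The nuclear OXPHOS genes together held 1.25% to 1.91% of the counts of a liver library and 0.712% to 0.946% of the counts of a lung library. Cox6a1, a small subunit of complex IV, was the most abundant in liver, with a mean of 654 FPKM in CS livers and 778 FPKM in PS livers. Cox8a, another small subunit of complex IV, led in lung with group means of 368 and 407 FPKM. The medians over the 94 genes were 73.5 and 77.0 FPKM in CS and PS livers and 41.2 and 45.6 FPKM in CS and PS lungs. Levels within a complex were far from equal. In CS livers the complex I genes ran from 1.97 FPKM for Ndufaf5, an assembly factor, to 274 FPKM for Ndufa2, an accessory subunit, and the 4 subunits of complex II from 46.7 FPKM for Sdhc to 132 FPKM for Sdhd, both membrane anchors.

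In the liver, no nuclear OXPHOS gene changed with the diet by edgeR's quasi-likelihood test. Of the 94 genes 87 passed edgeR's filter on low counts. None of them was called at an adjusted p under 0.05 in either direction, and none reached an unadjusted p of 0.05. Over all 13195 genes tested 0.00758% were called higher and 0% lower at the adjusted threshold, and 3.96% and 3.58% (7.55% in either direction) at the unadjusted one. DESeq2's Wald test called none of the 87 genes either. Their log2 fold changes, PS over CS, had a median of 0.04, against -0.03 for all genes tested, with 48 above and 39 below 0. By complex the medians were 0.05 for complex I, 0.07 for complex II, -0.01 for complex III, 0.06 for complex IV and 0.01 for complex V.

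The core subunits lay close to 0 with wide errors in the liver. Ndufs1, the largest iron-sulfur subunit of complex I, was at 9.16, 5.89, 12.1 and 7.95 FPKM in the 4 CS livers and at 6.02, 10.3, 7.54, 9.81 and 8.86 FPKM in the 5 PS livers, a log2 fold change of -0.04 (SE 0.23). Uqcrc1, a core protein of complex III, was the steadiest, at 62.3 to 71.9 FPKM in CS livers and 60.9 to 76.6 FPKM in PS livers, with a log2 fold change of 0.02 (SE 0.15). Cox4i1, the common form of the largest nuclear subunit of complex IV, had a log2 fold change of 0.01 (SE 0.26).

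Sdha, the flavoprotein that holds the succinate site of complex II, was at 89.8, 22.9, 110 and 85.2 FPKM in CS livers and at 29.7, 101, 49.6, 98.1 and 79.2 FPKM in PS livers, a log2 fold change of -0.10 (SE 0.44). Atp5b, the catalytic beta subunit of the ATP synthase, was at 263, 77.5, 286 and 297 FPKM in CS livers and at 114, 257, 148, 241 and 207 FPKM in PS livers, a log2 fold change of -0.25 (SE 0.37). Both genes were lowest in the same 3 livers, CS replicate 2 and PS replicates 1 and 3, which are those with the highest share of mitochondrial genome transcripts.

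The 4 liver genes with the largest fold changes among those at a mean log2 CPM of at least 1 did not pass the test. They were Ndufa12, an accessory subunit of complex I (log2 fold change -0.60, SE 0.54), Ndufa4l2, a paralogue of Ndufa4 known to respond to hypoxia (0.54, SE 0.49), Cox7a1, the heart and skeletal muscle form of a complex IV subunit (-0.51, SE 0.68), and Ndufb9, another accessory subunit (-0.39, SE 0.37). Their sizes rested on single livers: without CS replicate 2, Ndufa12 was at -0.20, Ndufa4l2 at 1.00, Cox7a1 at 0.35 and Ndufb9 at -0.04, and without PS replicate 1 Ndufa4l2 was at 0.11. Ndufa12 was at 9.45, 40.2, 6.60 and 37.4 FPKM in CS livers and 27.3, 12.4, 19.1, 7.10 and 11.01 FPKM in PS livers, so the groups overlapped over most of their range. Reads of Ndufa12 may be shared with a processed pseudogene, Gm15920, 99.5% identical over 402 bases and counted at about the same mean level. The smallest unadjusted p among the 87 genes was 0.0769, for the assembly factor Ndufaf7 (log2 fold change 0.38, SE 0.20, adjusted p = 0.709), chosen after its value was seen.

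**Figure D1:**
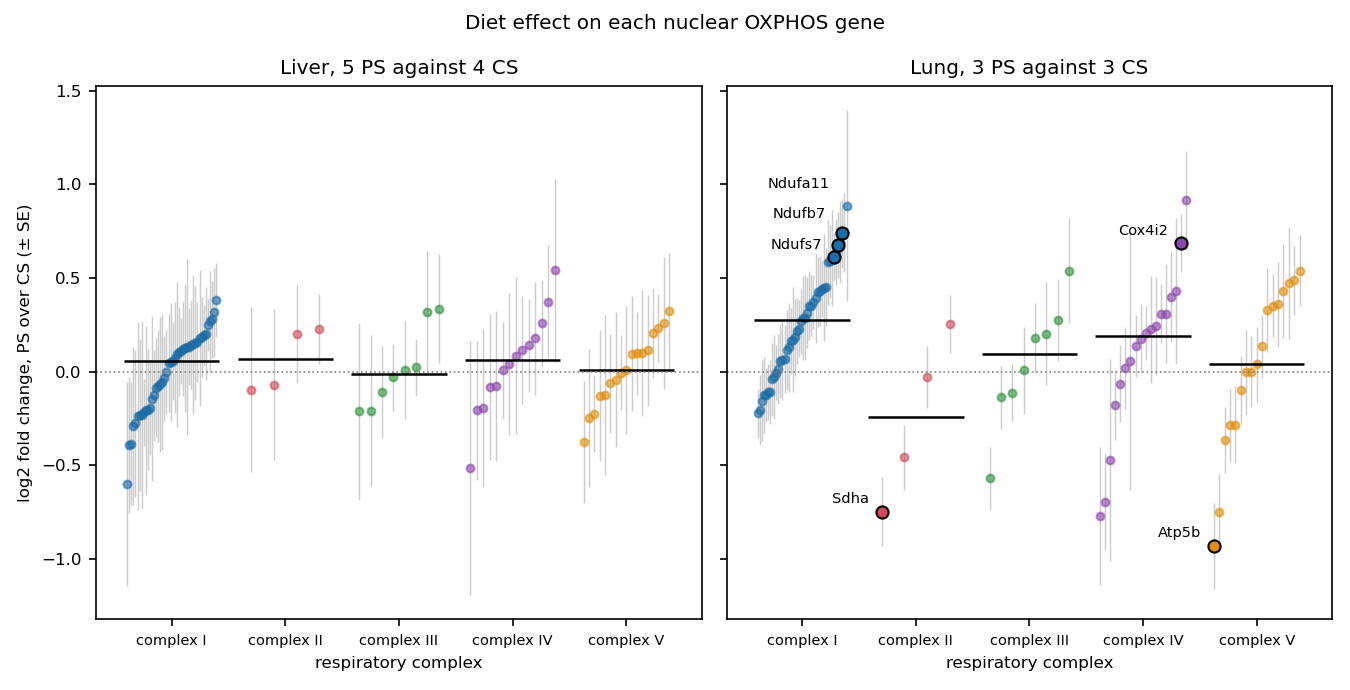
Log2 fold change of each nuclear OXPHOS gene (vertical axis, PS over CS, bars ± SE) by respiratory complex (horizontal axis) in liver and lung, with the median of each complex as a black line and genes at an adjusted p under 0.05 outlined and named. No liver gene is outlined. In lung the complex I median is 0.28, and Ndufs7, Ndufb7, Ndufa11 and Cox4i2 are outlined above 0 and Sdha and Atp5b below it.

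In the lung, 6 nuclear OXPHOS genes were called between the diets, in both directions. Ndufs7, Ndufa11 and Ndufb7 of complex I and Cox4i2 of complex IV were called higher in the PS group, and Sdha of complex II and Atp5b of complex V lower. Of the 94 genes 91 passed the filter, the others being Cox8c, Cox7b2 and the Atp5o row without reads. At an adjusted p under 0.05 4.4% of the 91 were called higher and 2.20% lower, beside 4.8% and 4.43% (9.22% in either direction) of the 16717 genes tested, so the share of calls was not above the background. At an unadjusted p of at most 0.05, 17 were higher and 6 lower (18.7% and 6.59%, against 15.6% and 14.5%, or 30.1% in either direction, of all genes).

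Among the genes that rose, Ndufs7, a core iron-sulfur subunit of complex I next to the ubiquinone site, was at 44.4, 40.8 and 38.8 FPKM in CS lungs and 67.2, 60.1 and 63.0 FPKM in PS lungs. Its log2 fold change was 0.61 (SE 0.13, edgeR adjusted p = 0.0323). Ndufa11, an accessory membrane subunit, was at 28.8, 24.5 and 23.9 FPKM against 53.2, 42.5 and 33.7 FPKM, a log2 fold change of 0.74 (SE 0.18, adjusted p = 0.0435). Ndufb7, an accessory subunit on the intermembrane side, was at 14.1, 11.7 and 12.5 FPKM against 24.3, 21.6 and 15.7 FPKM, a log2 fold change of 0.68 (SE 0.18, adjusted p = 0.0468).

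Cox4i2, the isoform of subunit 4 known to be rich in lung and to respond to hypoxia, was at 73.9, 83.9 and 74.9 FPKM in CS lungs and 131, 143 and 102 FPKM in PS lungs. The log2 fold change was 0.69 (SE 0.15, adjusted p = 0.0355). Its common counterpart Cox4i1 was at 225, 198 and 209 FPKM against 288, 158 and 196 FPKM, a log2 fold change of 0.02 (SE 0.22), whose sign changed with the scaling.

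The genes that fell both encode catalytic subunits. Sdha was at 54.9, 52.3 and 52.3 FPKM in CS lungs and 34.1, 23.8 and 37.2 FPKM in PS lungs, a log2 fold change of -0.75 (SE 0.19, adjusted p = 0.0427). Atp5b was at 105, 133 and 128 FPKM against 78.6, 44.3 and 70.1 FPKM, a log2 fold change of -0.93 (SE 0.23, adjusted p = 0.0426). For both, PS replicate 2 was the lowest.

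On the mouse build mm10 (GRCm38), as the tables place them, Ndufs7 spans chr10:80249121-80256794, Ndufa11 chr17:56717767-56722141, Ndufb7 chr8:83566671-83571626 and Cox4i2 chr2:152754173-152765037, all on the plus strand. Atp5b spans chr10:128083273-128090391 on the plus strand and Sdha chr13:74322254-74350280 on the minus strand. These are whole-gene spans, and counts were summed over exons. Ndufa11 overlaps Vmac, a gene on the opposite strand, by 70 bases, and whether counting used the strand is not stated in the sources used here.

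These calls rested on few lungs. Without any one of the 3 CS lungs, or without PS replicate 2, no nuclear OXPHOS gene was called in either direction, and over all genes 0 to 2 were called higher and 0 to 25 lower, while all 6 named changes kept their sign. At an unadjusted p of at most 0.05, 8 to 16 of the 91 were higher and 4 to 6 lower in these 4 fits, beside 10.6% to 13.1% and 9.54% to 12.2% of all genes. Without PS replicate 1, the lung with the highest heart muscle marker sum, 4 were called higher and 6 lower, beside 10.2% and 6.95% of all genes in that fit. Ndufs7, Cox4i2, Ndufa11, Sdha and Atp5b were among them, with log2 fold changes of 0.57, 0.65, 0.56, -0.80 and -1.10, whereas Ndufb7 (0.54, adjusted p = 0.0618) was not. Without PS replicate 3, 17 were called higher and 3 lower, all 6 named genes included, beside 5.55% and 7.67% of all genes. With a trend in GC content removed from each library, only Atp5b of the 6 was called (-0.90, adjusted p = 0.0424). The others had log2 fold changes of 0.65 for Ndufb7, -0.64 for Sdha, 0.57 for Cox4i2, 0.58 for Ndufa11 and 0.40 for Ndufs7, with adjusted p-values of 0.0545 to 0.119.

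Over all 91 lung genes the median log2 fold change was 0.18, against 0.01 for all genes tested, with 63 above and 28 below 0. The OXPHOS genes are short, and over all genes the lung median was 0.15 for those under 2000 bases and -0.03 for longer ones. The 58 OXPHOS genes under 2000 bases had a median of 0.22, with 45 above 0, and the 33 longer ones a median of 0.06, with 18 above 0. Without PS replicate 1 the median was -0.03. The accessory subunits of complex I had the highest median, 0.35, with 24 of 29 above 0 and 2 called, beside the 4.8% of all genes called higher. The 7 core subunits of complex I had a median of 0.29 with 1 called, and the 8 assembly factors a median of 0.09 with none called. Complexes III, IV and V had medians of 0.09, 0.19 and 0.04, and complex II had a median of -0.24 with 3 of its 4 genes below 0.

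Other lung genes with large fold changes did not pass the test. Cox6b2, the testis form of a complex IV subunit, was at 8.45, 13.3 and 11.6 FPKM in CS lungs and 15.9, 28.7 and 18.5 FPKM in PS lungs (log2 fold change 0.91, SE 0.26, adjusted p = 0.059). Ndufa12 had a log2 fold change of 0.89 (SE 0.51), set by PS replicate 1 at 35.9 FPKM against 7.45 to 12.3 FPKM in the other lungs; without that library it was -0.02. Cox5a, a matrix-side subunit of complex IV, was at 23.2, 17.97 and 20.4 FPKM against 12.3, 5.41 and 18.2 FPKM (log2 fold change -0.77, SE 0.37). Its log2 fold change ranged from -1.2269 to -0.4181 when 1 lung was left out. Atp5a1, the alpha subunit that pairs with Atp5b, was at 135, 138 and 142 FPKM against 94.5, 59.8 and 93.5 FPKM (log2 fold change -0.75, SE 0.20, adjusted p = 0.0511); it was chosen after its value was seen. The core subunits Ndufs1 (log2 fold change -0.22, SE 0.13) and Uqcrc1 (-0.11, SE 0.15) lay nearer to 0.

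Nuclear OXPHOS promoters are known to carry sites for the regulator NRF1. Promoter windows from RefSeq (GRCm38.p6, 250 bases before to 50 after each start) were found for 77 of the 94 rows, or 76 distinct symbols. On either strand a strict NRF1 motif stood in 9.21% of these windows and in 1.07% of all 27025 genes, and its looser form, which allows any base at position 6 and includes the strict one, in 25% against 5.19%. The 27025 are every symbol with a window, more than the 22046 protein-coding genes. They were not matched to the OXPHOS genes in expression or base content. The looser form stood in 6 of 15 complex V windows, 7 of 32 of complex I subunits, 2 of 3 of complex II, 1 of 5 of complex III and 1 of 14 of complex IV. The YY1 motif AAGATGGC stood in 14.5% against 3.19%, the GABPA motif CCGGAAGT in 6.58% against 4.31% and the ERRA motif AAGGTCA in 8 of 76 windows against 5.38%. The upstream parts of 4 windows are shown for the most abundant liver gene and for 3 genes that moved in lung, in lower case 5′ to 3′, with matches to the looser NRF1 motif in capitals. They are Cox6a1 at chr5:115348982-115349208 (minus strand), Ndufa11 at chr17:56717512-56717761 (plus), Sdha at chr13:74350281-74350490 (minus) and Atp5b at chr10:128083057-128083272 (plus).
Cox6a1: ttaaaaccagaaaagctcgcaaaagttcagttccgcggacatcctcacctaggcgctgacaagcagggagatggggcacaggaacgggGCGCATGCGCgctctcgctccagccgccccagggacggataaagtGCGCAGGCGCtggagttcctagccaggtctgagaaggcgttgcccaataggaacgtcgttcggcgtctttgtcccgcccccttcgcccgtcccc
Ndufa11: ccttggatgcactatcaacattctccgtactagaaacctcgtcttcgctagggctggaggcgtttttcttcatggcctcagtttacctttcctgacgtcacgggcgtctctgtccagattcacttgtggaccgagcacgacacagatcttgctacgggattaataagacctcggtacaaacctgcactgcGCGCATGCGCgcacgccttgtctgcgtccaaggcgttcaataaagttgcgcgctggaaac
Sdha: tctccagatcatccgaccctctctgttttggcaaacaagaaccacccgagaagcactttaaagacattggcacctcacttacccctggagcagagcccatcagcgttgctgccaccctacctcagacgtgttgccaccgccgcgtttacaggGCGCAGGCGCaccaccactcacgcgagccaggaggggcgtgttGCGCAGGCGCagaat
Atp5b: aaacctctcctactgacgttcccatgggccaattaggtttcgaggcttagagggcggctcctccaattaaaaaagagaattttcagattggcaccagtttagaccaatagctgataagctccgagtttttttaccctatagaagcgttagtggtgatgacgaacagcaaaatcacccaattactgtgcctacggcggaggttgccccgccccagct

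Of the genes that fell, Sdha held the looser motif and Atp5b held none of the motifs. Of those that rose, Ndufa11 held both NRF1 forms, Ndufs7 held the YY1 motif and Ndufb7 held none, while Cox4i2 had no window and was not searched. A match is a description of the letters only.

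Most nuclear OXPHOS genes moved together from liver to liver, and a smaller set moved the other way. In a principal component analysis of 87 genes over the 9 livers, on log2(FPKM + 1), the first component held 73.2% of the variance. Its scores were highest in liver CS replicate 2 (6.44) and in PS replicates 1 (4.17) and 3 (2.55), and lowest in CS replicates 3 (-5.14) and 1 (-4.11) and PS replicate 4 (-4.51), so both diets lay at both ends. Along it 16 genes went down and 71 up. Those going down most were Sdha, Cox5a, Sdhd, Atp5b, Atp5a1, Uqcrc2, Cox7a2l, Atp5f1, Ndufs1 and Ndufv1. Those going up most were Ndufa12, Ndufa5, Cox7a1, Uqcrq and Ndufb7. Over all genes tested in liver, the libraries split in a like way. Deviations from the diet mean in CS replicate 2 correlated at 0.58 and 0.51 with those in PS replicates 1 and 3. They correlated at -0.35, -0.60 and -0.37 with those in PS replicates 2, 4 and 5.

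**Figure D2:**
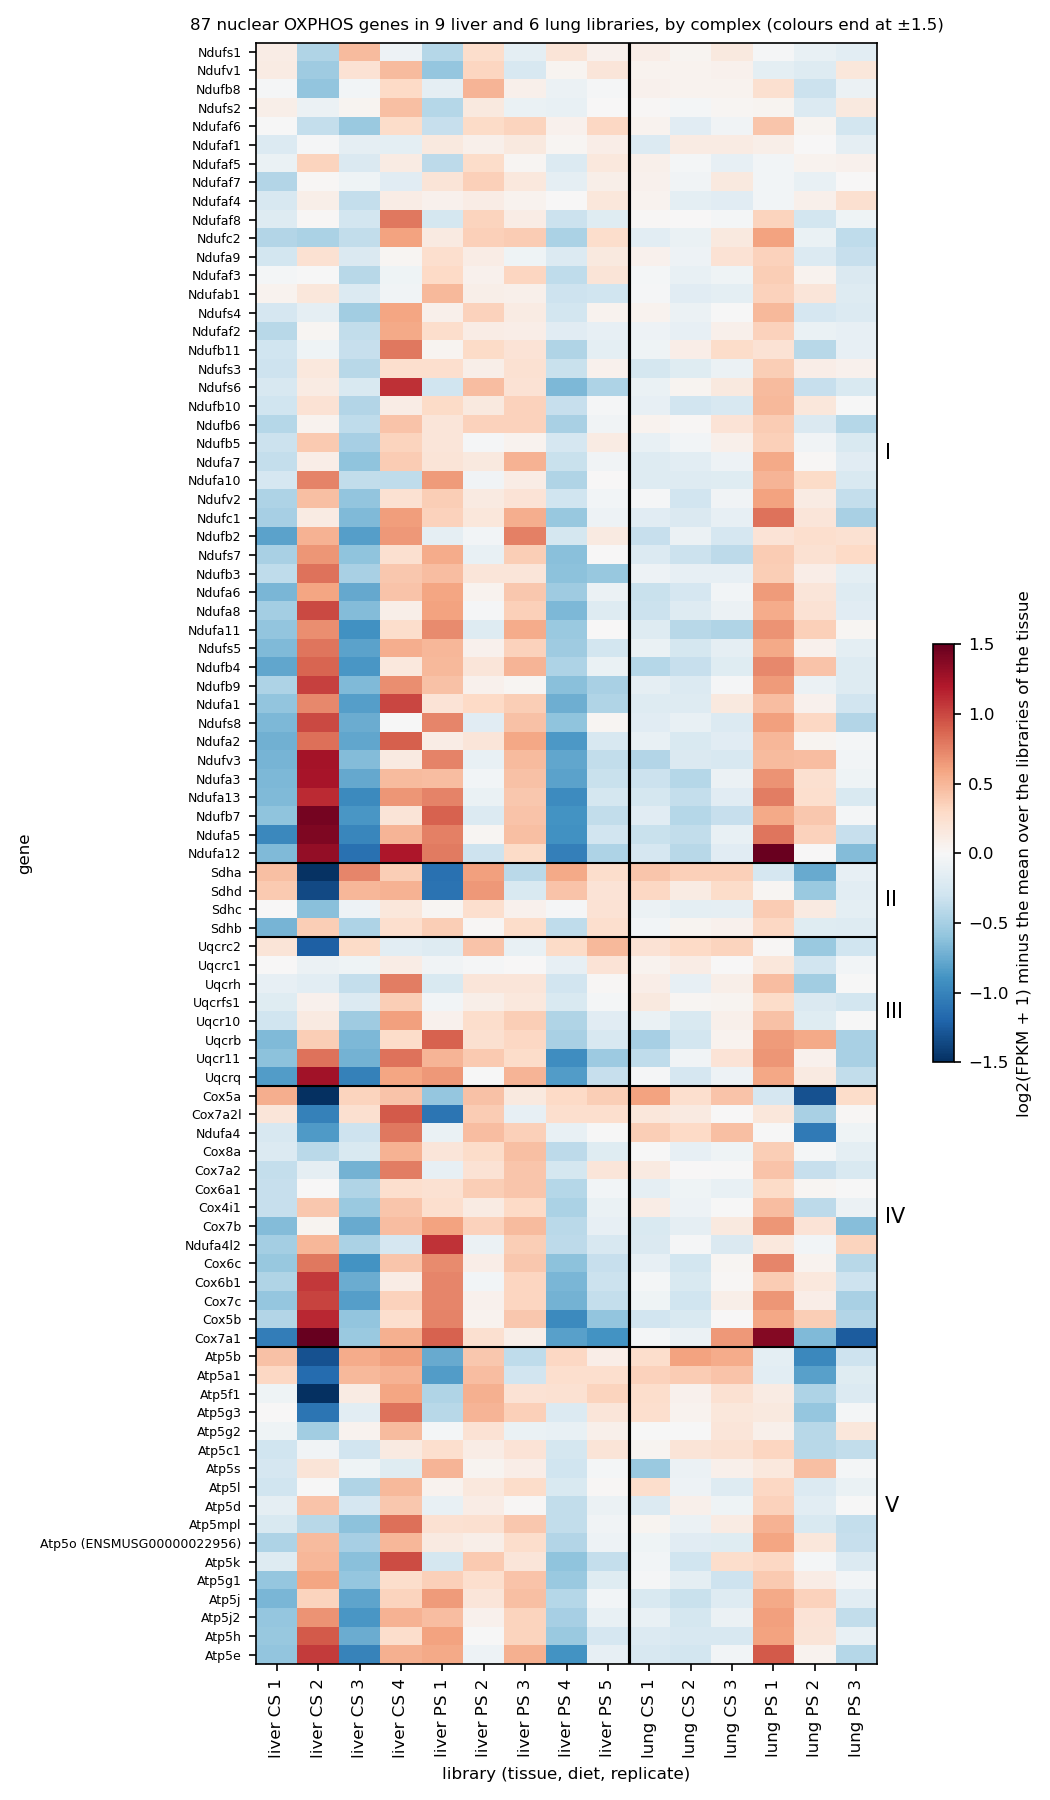
Level of 87 nuclear OXPHOS genes (rows, by complex and within it by direction on the first liver component) in the 15 libraries (columns), as log2(FPKM + 1) minus the mean of the tissue, with colours ending at ±1.5. In liver CS replicate 2 and PS replicate 1, Sdha, Atp5b and Cox5a are low while most complex I accessory subunits are high, and lung PS replicates 1 and 2 show a similar order of genes.

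Ndufa5, an accessory subunit of complex I, shows the upward side, at 54.2, 283, 53.5 and 152 FPKM in CS livers and 181, 108, 146, 56.3 and 86.7 FPKM in PS livers. It was highest in liver CS replicate 2, where Atp5b was lowest. Uqcrq, a small subunit of complex III, was at 206, 887, 183 and 559 FPKM in CS livers and 582, 369, 528, 206 and 291 FPKM in PS livers, again highest in CS replicate 2. The summed level of 8 hepatocyte markers was highest in the 3 livers with much mitochondrial genome RNA, at 94620 to 104037 FPKM against 59485 to 84363 in the others, but its members went both ways. Apoa2, an apolipoprotein, was at 41944 FPKM in CS replicate 2 against 13488 to 27972 in the other CS livers, while Cps1, a urea cycle enzyme, was at 83.8 FPKM there against 371 to 863, and at 164 and 236 FPKM in PS replicates 1 and 3 against 348 to 492 in the other PS livers. The median SD between libraries of a diet was 0.51 on the log2 scale for the OXPHOS genes in liver, against 0.35 over all genes tested, and 0.26 against 0.24 in lung.

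The same order of genes appeared in the lung diet comparison, which used other libraries. Across the 87 genes, the slope on the liver component and the lung log2 fold change had a Pearson correlation of 0.83 (Spearman 0.79). The 10 genes with the most negative liver slopes all had lung log2 fold changes below 0 (median -0.51), and the 10 with the most positive all had values above 0 (median 0.59). Across all 12296 genes with both values the correlation was 0.63, so the relation was not confined to OXPHOS genes. Genes share their libraries and are not independent, and 6 mice gave both tissues. With slopes from the 4 CS livers alone the correlation over the OXPHOS genes was 0.83, and with slopes from the 3 livers of mice without a lung library it was 0.45 (0.25 over all genes).

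By single lungs, the correlation of the difference from CS lungs with the liver slope was 0.89 in PS replicate 1 and 0.75 in PS replicate 2, the 2 lungs with the most mitochondrial genome RNA. It was 0.20 in PS replicate 3, and in the CS lungs, each against the other CS lungs, it was -0.14, -0.21 and 0.30. Lung PS replicates 1 and 2 came from the same mice as liver PS replicates 1 and 3. Liver CS replicate 2, at the high end in liver, came from the mouse of lung CS replicate 2, which was not at the high end in lung. Over the 91 genes the lung log2 fold change had a Pearson correlation of -0.13 with log2 length and 0.18 with GC percent. Of the 58 genes under 2000 bases 3 were called higher and 0 lower, beside 6.02% and 3.44% of all genes of that length, and of the 33 longer ones 1 higher and 2 lower, beside 4.48% and 4.69%. Whether RNA quality or tissue handling took part in these differences was not tested.

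**Figure D3:**
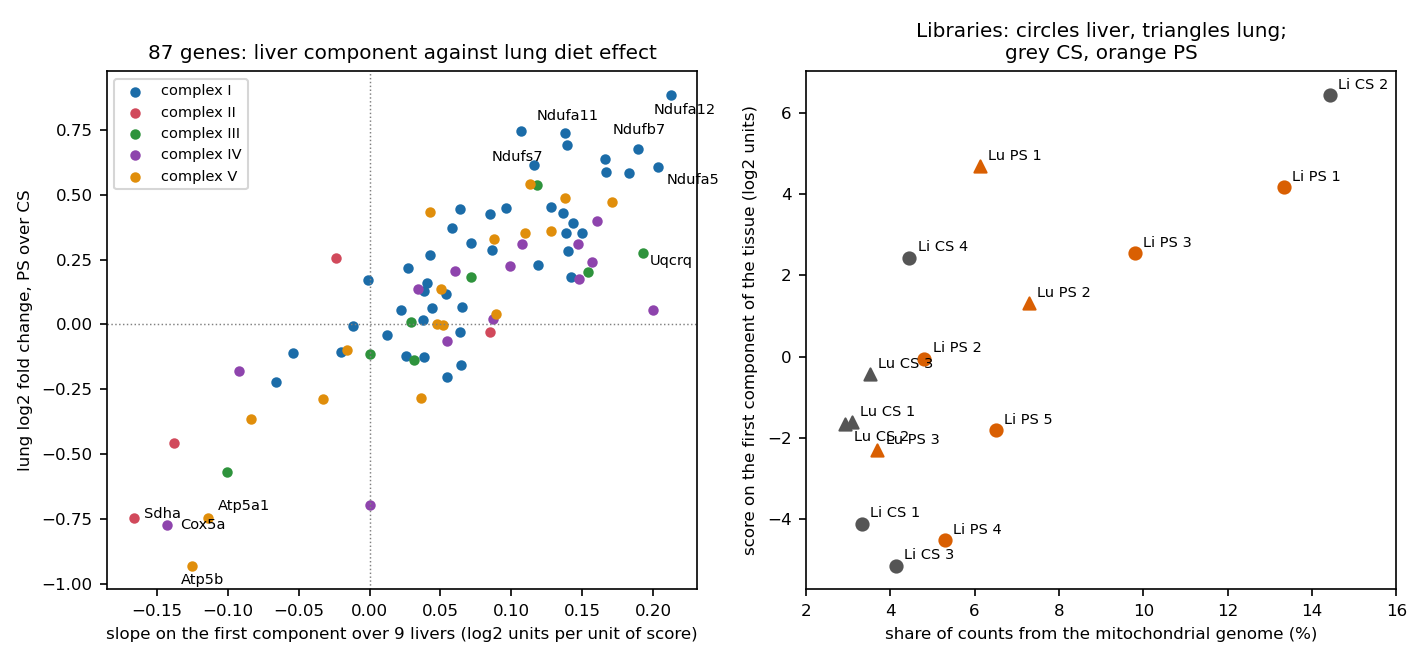
Left, lung log2 fold change (vertical axis, PS over CS) against slope on the first liver component (horizontal axis) for 87 genes, coloured by complex, with a Pearson correlation of 0.83. Right, score of each library on the first component of its own tissue (vertical axis) against its share of counts from the mitochondrial genome (horizontal axis, %): liver CS replicate 2 is at 14.4% and 6.44, and lung PS replicate 1, at 6.13%, has the highest lung score, 4.68.

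The other genes of the pathway were read from lists. All 13 protein-coding genes of the mitochondrial genome had lung log2 fold changes above 0, with a median of 0.96. One, mt-Nd4, a complex I subunit, was called higher (1.02, adjusted p = 0.0489), and 10 reached an unadjusted p of 0.05, beside 4.8% and 15.6% of all genes called higher at these thresholds. In liver their median was 0.24 and none was called. Of 7 electron carriers and dehydrogenases, lung called Etfb, a subunit of the electron transfer flavoprotein, higher (1.10, adjusted p = 0.0221) and Etfdh, its ubiquinone oxidoreductase, lower (-1.04, adjusted p = 0.0217). Of 40 assembly factors outside the naming rule, 38 were tested in lung and 2 called lower, against 4.43% of all genes, with 8 higher and 5 lower at an unadjusted p of 0.05. Of 12 regulators of mitochondrial biogenesis, none of the 11 tested in lung was called (2 higher and 1 lower at an unadjusted p of 0.05, where 30.1% of all genes passed in either direction), and Ppargc1a, a coactivator of the programme, had a log2 fold change of -0.69 (adjusted p = 0.148). No gene of these lists was called in liver, where 2 of 37 assembly factors and 1 of 12 regulators tested were higher at an unadjusted p of 0.05, beside 3.96% of all genes.

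Lung levels of nuclear OXPHOS genes were far below those of liver relative to other genes. In 1 model over all 15 libraries, 82 of 91 genes were called lower in lung and 5 higher, whereas 34.4% of the 17696 genes tested were called lower and 42.3% higher. The counts were also 82 and 5 at an unadjusted p of 0.05, where all genes gave 35.1% lower, 42.9% higher and 78% in either direction. The median log2 difference, lung minus liver, was -2.27, against 0.17 for all genes. The size of this and some of the calls depend on scaling. With DESeq2's size factors the median of all genes was 0.32, and by library size alone it was 1.55. The OXPHOS median differed from that of all genes by -2.44, -2.44 and -2.43 in these scalings. By deposited FPKM 75 of the 91 genes had the higher mean in liver, with a median liver to lung ratio of 1.87.

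All 5 complexes took part. In complexes II, III and V each tested gene was called lower in lung in this model, with medians of -2.38, -2.52 and -2.58. In complex I 42 of 44 were, with a median of -2.17 for accessory subunits, -2.07 for core subunits and -1.28 for assembly factors. By library size alone 11 genes turned from below to above 0, among them the assembly factors Ndufaf2, Ndufaf3, Ndufaf5, Ndufaf7 and Ndufaf8, and Cox7a2l, a factor of respiratory supercomplexes, Atp5g2 and Ndufc2. Some were then called higher in lung, among them Atp5s of complex V (0.71, edgeR adjusted p = 0.00135), Ndufaf3 (0.91, 9.06e-06) and Ndufc2 (0.44, 0.038). Atp5l of complex V and Uqcrh of complex III were then not called (edgeR adjusted p = 0.0539 and 0.44). Ndufaf5 and Ndufaf7 also turned with DESeq2's size factors. Cox7a2l was at 32.9 to 136 FPKM in liver and 127 to 200 FPKM in lung.

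The genes with the largest falls from liver to lung were Uqcrq (log2 difference -4.34, SE 0.40), Atp5g1, a gene for the membrane ring of the ATP synthase (-3.55, SE 0.24), Sdhb, the iron-sulfur subunit of complex II (-3.09, SE 0.21), Uqcrfs1, the Rieske protein of complex III (-3.02, SE 0.16), and Ndufa10, an accessory subunit of complex I (-3.01, SE 0.23). All had edgeR adjusted p-values of 3.63e-08 or less. Uqcrq was at 183 to 887 FPKM in liver and 40.8 to 79.9 FPKM in lung. Atp5g1 was at 24.5 to 56.4 FPKM in liver and 6.63 to 11.5 FPKM in lung, with reads that may be shared with a pseudogene, Gm10039. Its sister genes encode the same mature protein, and Atp5g2 was at 38.2 to 77.6 FPKM in liver and 47.6 to 72.7 FPKM in lung. The core genes differed by -1.76 for Ndufs1, -2.23 for Sdha, -2.72 for Uqcrc1, -2.28 for Cox4i1 and -2.63 for Atp5b.

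**Figure D4:**
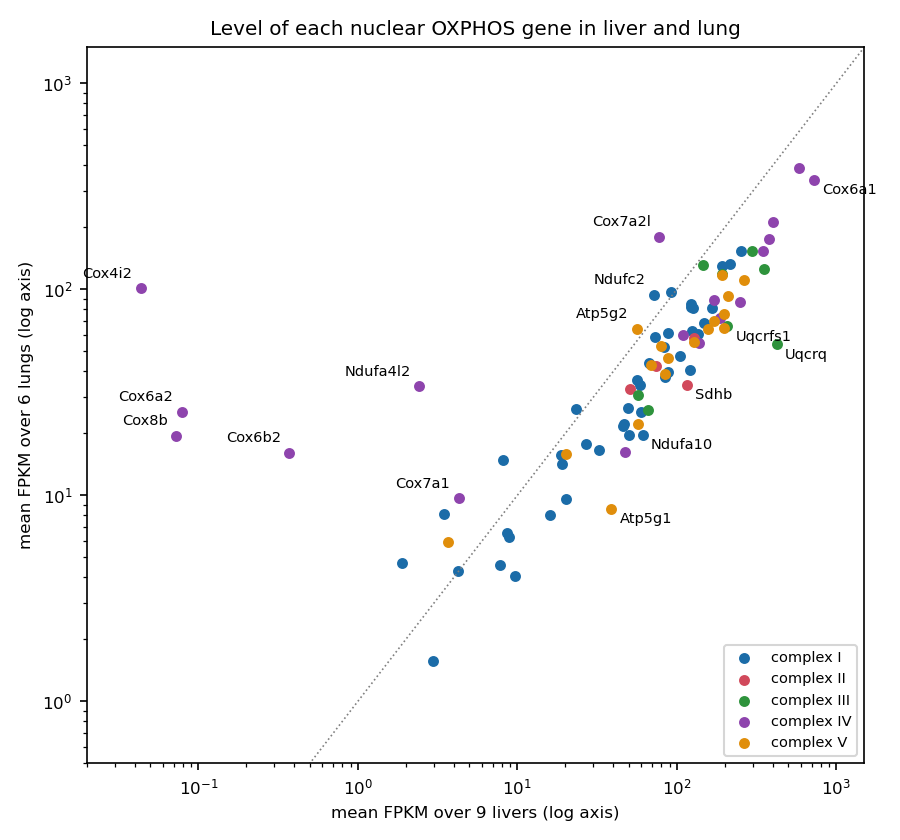
Mean FPKM of 91 nuclear OXPHOS genes over 9 livers (horizontal log axis) and 6 lungs (vertical log axis), coloured by complex, with the line of equal FPKM dotted; the FPKM tables of the tissues were scaled separately. Most genes lie below the line, while Cox4i2, Cox6a2, Cox8b, Cox6b2 and Ndufa4l2, all counted with complex IV, lie far above it.

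The 5 genes called higher in lung were tissue-restricted genes counted with complex IV. Cox4i2, Cox6a2, Cox8b and Cox6b2 did not pass the filter in the liver comparison, so they were tested through their lung counts. With at least 10 counts required in every library, 1 gene was called higher. Cox4i2 had 0 to 2 counts per liver and 1091 to 1991 per lung, Cox6a2, the heart and skeletal muscle form of subunit 6A, 0 to 3 and 153 to 519, and Cox8b, the muscle form of subunit 8, 0 to 2 and 55 to 260. No fold is given for these, since it would rest on 0 to 3 counts per liver. Cox6b2 was at 0 to 0.855 FPKM in liver and 8.45 to 28.7 FPKM in lung (log2 difference 4.01, SE 0.37). Ndufa4l2 was at 1.24 to 5.79 FPKM in liver and 28.7 to 42.5 FPKM in lung (2.50, SE 0.28), although it overlaps Shmt2, a gene on the opposite strand with more reads, by 32 bases. Cox7a1, the muscle form of subunit 7A, did not differ beyond its error (-0.18, SE 0.54), at 1.16 to 12.01 FPKM in liver and 2.76 to 22.3 FPKM in lung.

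Cox7a1 and Cox8b followed different lungs from Cox4i2, and Cox6a2 did so only in part. Cox6a2 was at 18.3, 24.0 and 22.5 FPKM in CS lungs and 45.8, 29.9 and 12.3 FPKM in PS lungs. It was highest in PS replicate 1 and next in PS replicate 2, the lungs where Cox4i2 was also highest. PS replicate 2 had the lowest heart muscle marker sum, 29.1 FPKM. Cox7a1 was at 7.80, 7.42 and 13.0 FPKM in CS lungs and 22.3, 4.65 and 2.76 FPKM in PS lungs, also highest in PS replicate 1. Cox8b was at 12.6, 16.05 and 39.1 FPKM in CS lungs and 29.0, 11.9 and 8.34 FPKM in PS lungs, highest in CS replicate 3 and next in PS replicate 1. Those are the lungs with the highest skeletal and heart muscle marker sums. Of the 9 heart muscle markers 7 were highest in PS replicate 1, and Myl7, a light chain of atrial myosin, made up 202 of the 357 FPKM there, against 10.45 to 63.4 FPKM elsewhere. Actc1, cardiac actin, was at 35.2 FPKM in PS replicate 1, below the 37.4 to 53.9 FPKM of the CS lungs, and Nppa, an atrial hormone, was at 6.24 FPKM, below the 10.1 FPKM of CS replicate 2. All 7 skeletal markers were highest in CS replicate 3, with Acta1, skeletal actin, at 143 FPKM and at most 0.469 FPKM elsewhere. CS replicate 3 also had the highest sum of 5 brown fat markers, 15.9 FPKM against 1.55 to 6.90 FPKM, but the markers were split. Ucp1, the uncoupling protein of brown fat, was at 3.67 FPKM there against at most 0.187 FPKM, and Cidea, a lipid droplet protein, at 11.99 FPKM against at most 5.16 FPKM, while Dio2, Elovl3 and Otop1 were highest in CS replicate 1, at 0.350, 1.06 and 0.148 FPKM. The part of muscle or brown fat cells in these values was not tested.

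**Figure D5:**
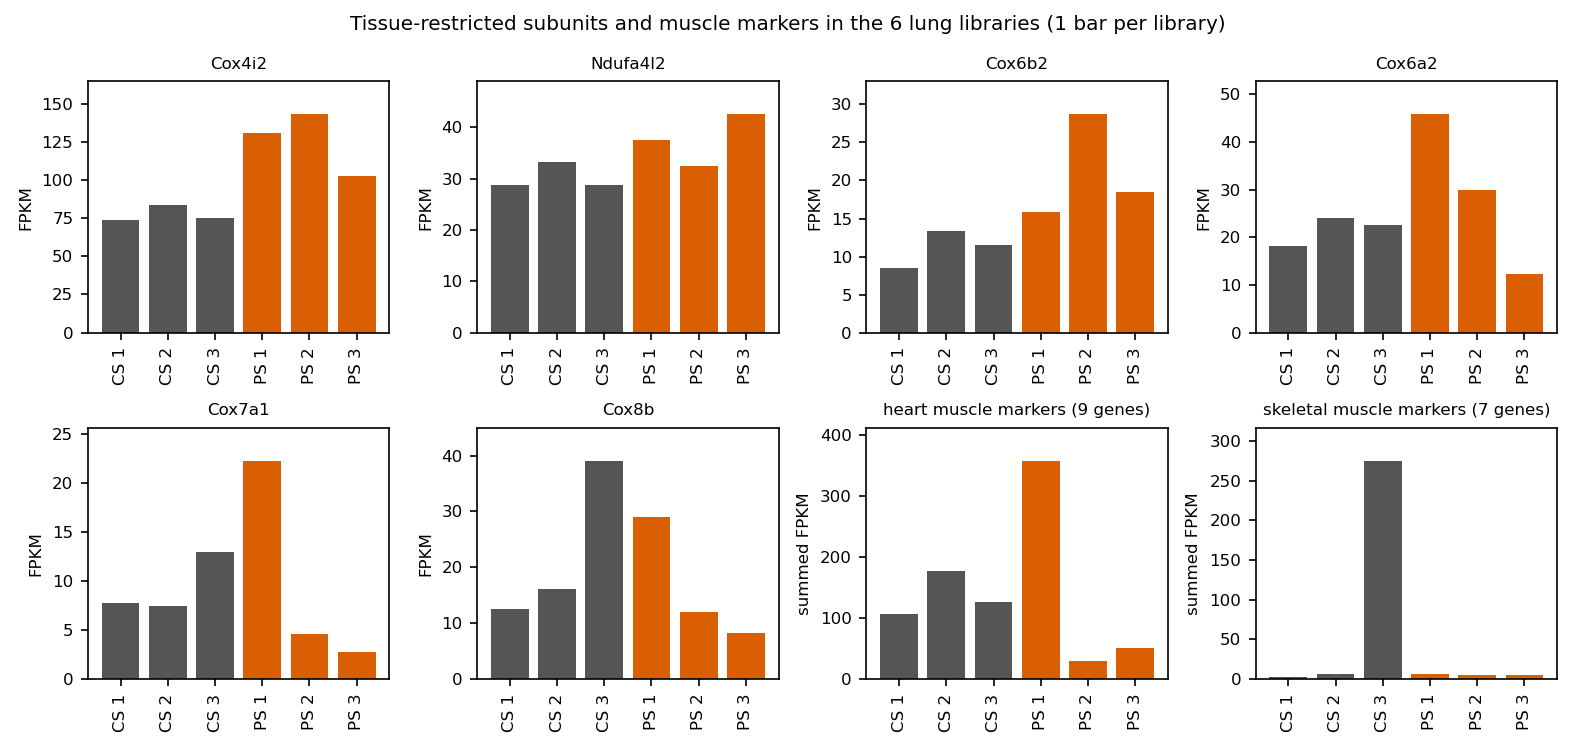
FPKM of 6 tissue-restricted subunits, and summed FPKM of the heart and skeletal muscle markers, in each lung library (horizontal axis, 1 bar per library, CS grey and PS orange; vertical axes start at 0). Cox4i2 is higher in the 3 PS lungs (102 to 143) than in the 3 CS lungs (73.9 to 83.9), while Cox7a1 and Cox8b peak in PS replicate 1 and CS replicate 3, as the marker sums do.

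Within sets of isoforms or paralogues, shares of FPKM do not depend on the scaling between libraries. In lung, Cox4i2 made up 27.0% ± 2.58 (SD, n = 3) of Cox4i1 and Cox4i2 in CS lungs and 37.7% ± 8.62 (n = 3) in PS lungs, with exact permutation p = 0.1, the smallest that 3 against 3 allows. Ndufa4l2 made up 22.1% ± 2.32 of its pair with Ndufa4 in CS lungs and 37.5% ± 7.28 in PS lungs (n = 3 each, exact p = 0.1). Ndufa4 itself was at 106, 101 and 113 FPKM in CS lungs and 81.4, 38.8 and 78.3 FPKM in PS lungs (log2 fold change -0.69, SE 0.26). Ndufa4l2 had a log2 fold change of 0.31 (SE 0.16), and neither passed the adjusted test. Atp5g1 made up 5.20% ± 0.705 and 7.60% ± 1.80 of the 3 ring genes (n = 3 each, exact p = 0.1). For these 3 shares every PS lung lay above every CS lung, but none of the 11 shares tested over both tissues passed a Benjamini-Hochberg adjustment, the lowest adjusted p being 0.275. Cox6b2 made up 6.41% ± 1.77 and 10.4% ± 3.38 of its pair (n = 3 each, exact p = 0.2). Cox6a2, Cox7a1 and Cox8b shares differed by 0.759, -0.811 and -2.07 percentage points, PS minus CS, within the spread of the lungs.

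In liver the 4 tested shares overlapped between diets. Cox6b2 made up 0.144% ± 0.0614 (n = 4) and 0.0719% ± 0.0444 (n = 5) of its pair, resting on 0 to 14 counts per liver, with exact permutation p = 0.0794 and a direction opposite to that in lung. Cox7a1 made up 3.03% ± 2.95 (n = 4) and 2.04% ± 1.503 (n = 5) of its pair, with exact permutation p = 0.556. Ndufa4l2 made up 1.09% ± 1.04 and 1.11% ± 0.828 (n = 4 and 5, exact p = 0.944), and Atp5g1 15.1% ± 10.7 and 13.5% ± 3.87 (n = 4 and 5, exact p = 0.881).

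The diet effect itself was compared between the tissues in the model over all libraries. No nuclear OXPHOS gene was called, by edgeR's quasi-likelihood test or by DESeq2, where 0.00565% and 0.017% of the 17696 genes were called higher and lower (0.0226% in either direction). At an unadjusted p of 0.05, 1 gene was higher in lung than in liver and 3 were lower, against 5.54% and 5.4% of all genes (10.9% in either direction). The higher one was Cox6b2 (log2 difference 1.97, resting on 0 to 14 counts per liver). The lower ones were Uqcrc2, a core protein of complex III (-0.94), Ndufaf7 (-0.55) and Cox4i2. No value is given for Cox4i2, which had 0 to 2 counts per liver. Cox6b2 and Cox4i2 were tested only through their lung counts. All of these genes were named after their values were seen. So the 6 lung changes were not shown to differ from the liver.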

How the data were processed

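Poly-A selected RNA was sequenced from 9 livers and 6 lungs. By the submitters' processing notes, the authors aligned reads to mm10 with HISAT2 2.0.5, counted them per gene with featureCounts 1.5.0-p3 and used DESeq2 1.20.0. They deposited raw counts and FPKM in 1 table per tissue. The deposited FPKM equal the counts divided by gene length and by 1 factor per library. Strand use in counting and the gene model are not given in the sources used here.

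Samples were grouped by the labels' tissue and diet, and each library was 1 mouse. From the counts, edgeR 4.0.16 (R 4.3.3; TMM, filterByExpr, robust quasi-likelihood test) compared diets within each tissue, and 1 model over 4 groups compared lung with liver and the diet effects. Adjusted p-values are Benjamini-Hochberg values over every gene tested, with calls at 0.05. The study's methods name a threshold of 0.05 without saying whether it is for adjusted or unadjusted values, so counts at both are given. The fits were tested on simulated data. Isoform shares were compared by two-sided exact permutation tests. Alternatives were DESeq2 1.42.0 (size factors; Wald test), testing without a filter, a stricter minimum of 10 counts in each library, loess removal (span 0.3) of length or GC trends, limma-trend 3.58.1 on log2 FPKM with pseudocounts of 1 or 0.1, replicate number as block, mouse as block, 1 diet at a time and each library left out. Scaling by library size alone was added after the data were seen.

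Depth was 14410117 to 19396057 counts per library. Of the 94 genes, 31 have a near-identical copy (95% over at least 200 bases), and for 10 the copies hold at least 10% of the gene's counts. Exons of 29 genes overlap a gene on the other strand.

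The genes, lists and tests were chosen with earlier results of these data known. Genes were named by rule: those called in a diet comparison, per tissue the 4 with the greatest fold change whose mean log2 CPM reached 1, the 5 largest tissue differences each way, the 3 most abundant per tissue, the isoform pairs and 1 core gene per complex; others are marked as chosen after their values were seen. The principal component and the genes named from it were also chosen after the data were seen. No library pair of a group was as close as counting noise. The result of 1 further pathway list is not reported here.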

Additional observations from a re-analysis of the deposited data

Results flagged for a closer look

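Among the genes named by rule, a liver library lay far from the others of its diet (Dixon's test at the 95% level) in 4 cases, all in the CS group of 4 livers. Replicate 2 was lowest for Cox5a at 10.01 FPKM and for Atp5b at 77.5 FPKM, and highest for Ndufa10 at 98.4 FPKM. Replicate 4 was highest for Cox8a at 813 FPKM. Chance marks about 1 in 20 groups, and 52 groups were examined. Replicate 2 is the liver with the largest share of counts from the mitochondrial genome, 14.4%. The causes were not tested.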

How the results depend on the processing

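In liver, no nuclear OXPHOS gene was called under any setting run. Leaving out 1 liver gave 0 to 3 of 87 or 88 genes higher at an unadjusted p of 0.05 (3 without CS replicate 4), beside 2.76% to 7.77% of all genes (4.37% without CS replicate 4). In lung, calls higher and lower were 4 and 2 with the fit reported, 8 and 5 with DESeq2's Wald test, 8 and 4 with no filter, 2 and 4 by library size alone, 1 and 0 with limma-trend on log2(FPKM + 1) and on log2(FPKM + 0.1). They were 1 and 2 with the GC trend removed and 5 and 5 with the length trend removed. Over all genes the shares called higher and lower in these fits were 5.24% and 5.01% (DESeq2), 4.25% and 3.78% (no filter), 2.46% and 5.66% (library size), 2.96% and 3.53%, and 3.16% and 3.33% (limma-trend), 4.47% and 3.53% (GC) and 6.53% and 4.73% (length). Leaving out 1 lung gave 0 to 17 higher and 0 to 6 lower (0 without CS replicate 1, 2 or 3 or PS replicate 2; 17 higher without PS replicate 3), 8 to 40 higher and 4 to 14 lower at an unadjusted p of 0.05 (40 and 7 without PS replicate 3, 8 and 14 without PS replicate 1), beside 10.6% to 18.6% and 9.54% to 17% of all genes (15.7% and 17%, 18.6% and 16.9% in those 2 fits), and medians of -0.0298 to 0.3393. The cause was not tested.

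For lung minus liver, library size alone gave 12 higher, beside 72.3% of all genes, and a median of -0.8872, and at least 10 counts in every library, which removes genes with few liver reads, gave 1 higher, beside 36.5%. By library size alone fewer than 82 were called lower. The 11 genes that turned lay above 0, and Ndufa12, Atp5l, Ndufa7, Ndufb8 and Uqcrh were not called (edgeR adjusted p = 0.0539 to 0.44). The mouse block gave 5 higher and 82 lower, as did leaving out each library.

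Some signs turned. Cox4i1 in liver was -0.0175 by library size alone, -0.0033 at 10 counts in every library and -0.0399 with the length trend removed. Cox4i1 in lung was -0.0689, -0.0539 and -0.138 by library size alone and with length or GC trends removed, -0.0171 and -0.0173 by limma-trend and -0.0221 with the replicate block. Uqcrc1 in liver was -0.0123 by library size alone and -0.0319 with the replicate block. Between tissues Cox7a1 was 1.1999 and Atp5g2 0.2152 by library size alone, and Cox7a1 was 0.0778 at 10 counts, 0.0161 with the mouse block and 0.1466 in PS mice. Without crossing 0, leave-one-out ranges in liver were -0.9111 to -0.1959 for Ndufa12, 0.1085 to 1.0045 for Ndufa4l2, -0.6168 to -0.0393 for Ndufb9 and -0.534 to -0.1025 for Atp5b. Leave-one-out ranges that crossed 0 were, in liver, Cox4i1 -0.1524 to 0.1596, Cox7a1 -0.9131 to 0.3478, Ndufs1 -0.1813 to 0.1537, Sdha -0.3976 to 0.1208 and Uqcrc1 -0.033 to 0.0658. In lung they were Cox4i1 -0.2514 to 0.2022, Ndufa12 -0.021 to 1.2585 and Uqcrc1 -0.2347 to 0.0055, and between tissues Cox7a1 -0.8887 to 0.2324. In percentage points, shares crossed 0 for Atp5g1 (-3.4895 to 3.8037), Cox7a1 (-1.7114 to 0.4556) and Ndufa4l2 (-0.3343 to 0.5455) in liver and Cox6a2 (-0.6656 to 2.5739) and Cox7a1 (-4.4657 to 1.7211) in lung.

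Replicate numbers did not pair the samples: same-numbered libraries had correlated deviations of -0.44 to -0.02 in liver and -0.01 to 0.08 in lung. With the replicate block 0 genes were called in liver and 5 higher and 3 lower in lung, beside 0% of all genes in either direction in liver and 4.89% and 4.82% in lung. With 3 lungs per diet, changes smaller than those called may be missed.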
